A study of Mus musculus with 40 samples.

Results

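The arrays described here were the Week3 and Week6 arrays of the 4 high-fat diets, set against each other in 4 pairs, 1 pair per diet. They were chosen by the diet and time point in their labels and made up 8 of the 40 samples of the series. The study followed C57BL/6J mice, weaned at 3 to 4 weeks of age, on a low-fat diet or a high-fat diet, and hybridised RNA labelled as subcutaneous stromal vascular cells (SVCs) to 1-colour Agilent arrays. The high-fat diet (HFC) took 60% of its calories from fat and had increased sucrose. The other groups received the same diet with 5 µg (HF5), 20 µg (HF20) or 75 µg (HF75) of Kal-1, a botanical formulation. Week 3 and week 6 are named as in the labels, and the study's methods count these weeks from day 14 of feeding. No genotype other than the strain is stated. Each diet held 30 mice, of which 5 were killed every 3 weeks.

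The series text speaks of 3 biological replicates, but each diet had 1 array per week here, and whether an array held RNA of 1 animal or of a pool is not stated. The SEs and p-values below therefore rest only on the spread of the 4 week differences. In limma that spread is drawn toward a value estimated over all probes. The low-fat diet (LFC, 10% of calories from fat) was left out because its week 3 array was dim. The 75th percentile of its intensities was 7.86, against 520 to 780 on the 4 high-fat arrays of week 3, and 17.2% of its probes were well above background.

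Lymph nodes are embedded in fat, and the inguinal node lies within the subcutaneous fat pad of the mouse. Lymphocytes enter a node through high endothelial venules, whose cells carry sulphated, fucosylated mucins such as Glycam1. Chemokines made by the stroma of the node, among them Cxcl13, Ccl19 and Ccl21, then sort B cells and T cells into their zones through Cxcr5 and Ccr7, and lymphotoxin from lymphocytes keeps that stroma in place.

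Levels are log2 intensities set against each array's own 75th percentile, so that 0 is the level at that percentile. Of the probes, 58.5 to 70.4% were well above background on the week 3 arrays and 66.4 to 72.1% on the week 6 arrays. Spots not well above background were given a floor, the lowest level their array could show, which lay between -6.41 and -4.80. The HF20 array of week 6 was scanned brightest, with a 75th percentile of 1793, and its spots saturated near 5.2 on this scale. Among the week 3 arrays, HF5 correlated with the other 3 across probes at r = 0.911 to 0.925, and those 3 with each other at 0.962 to 0.981. The week 6 arrays correlated with each other at 0.929 to 0.969, and arrays of different weeks at 0.811 to 0.923.

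Each of the 8 arrays was on a slide of its own, and no scan day held both weeks. Week and scan day therefore cannot be told apart. The HFC and HF5 arrays of week 3 shared 1 scan day and the HF20 and HF75 arrays another. At week 6, HFC, HF5 and HF20 shared a scan day, and HF75 was scanned on a different one. Xist was not well above background on any of the 8 arrays, and the Y-linked genes Ddx3y and Eif2s3y were on all 8, so no pair mixed the sexes by these genes.

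Week 3 and week 6 differed in opposite ways in lymphoid and epithelial genes. Most listed genes of the B cell and T cell receptors and some of high endothelial venules were higher at week 3. At week 6, 5 of 8 epithelial genes were higher, among them Krt15, which was at the floor on all week 3 arrays. Genes of macrophages, fibroblasts, fat and blood vessels differed less or not past the threshold. In limma with diet as a block, 2680 of 30254 probes (8.86%) were higher at week 3 and 2406 (7.95%) lower, at a Benjamini-Hochberg adjusted p under 0.05. Counted by gene, with 1 probe per gene, 1866 of 21634 (8.63%) were higher and 1933 (8.94%) lower. Of the 5086 probes past the threshold, 5049 had the same sign in all 4 pairs. Passing a test on these same 4 differences favours a shared sign, so this count only describes them. The median difference was 0.10 over all probes tested and 0.07 over all genes. Counts of gene lists below are of the genes tested, and where fewer were tested than listed both numbers are given. Each such count stands beside the shares over all genes, 8.63% higher and 8.94% lower. The counts rested on all 4 pairs: without HFC, HF5, HF20 or HF75, the probes higher at week 3 numbered 1659, 1891, 949 and 1310, and the probes lower at week 3 1609, 1850, 1073 and 1477. Differences below are week 3 minus week 6 on the log2 scale, with their SE, and all adjusted p-values are from limma.

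**Figure D1:**
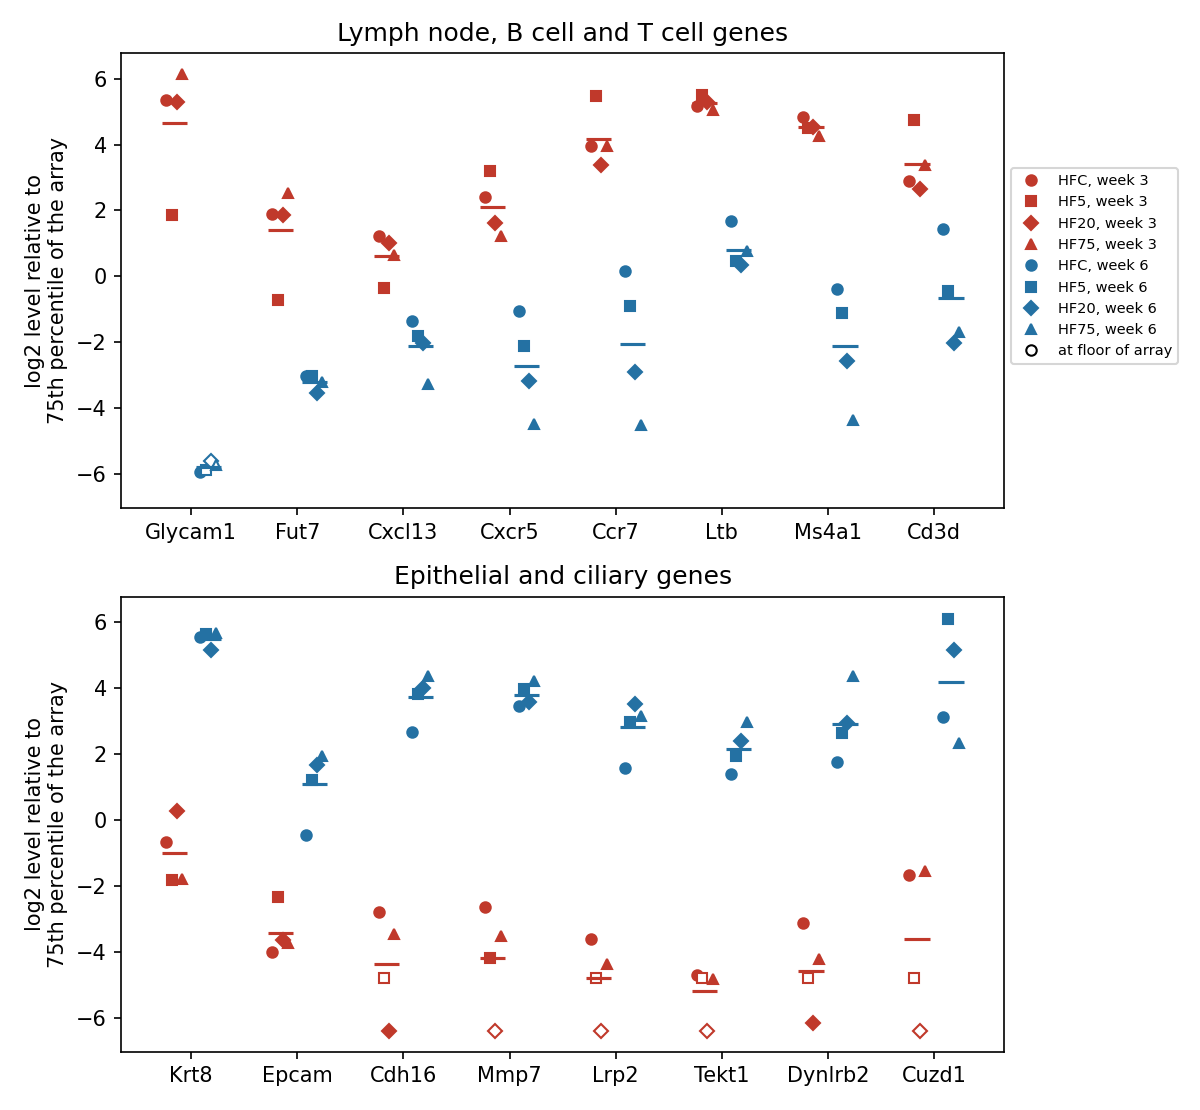
Log2 level relative to the array's 75th percentile of 8 lymph node, B cell and T cell genes (top) and 8 epithelial and ciliary genes (bottom) on each of the 8 arrays, with the mean of each week as a line. Red symbols are week 3, blue symbols week 6, shapes give the diet, and open symbols lie at the lowest level the array could show; in all 16 genes the weeks did not overlap.

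Among ligands of the vessel wall, Glycam1 differed most. Its level was 5.34 in HFC, 1.85 in HF5, 5.30 in HF20 and 6.15 in HF75 at week 3, and -5.94, -5.87, -5.62 and -5.74 at week 6. All 4 week 3 arrays were high, with HF5 the lowest of them, and at week 6 only the HFC array measured it above background. The difference was 10.45 (SE 0.66, adjusted p = 0.00062), the largest of all named genes. Fut7, the fucosyltransferase that modifies these mucins, stood at 1.89, -0.71, 1.86 and 2.53 in HFC, HF5, HF20 and HF75 at week 3 and between -3.53 and -3.02 at week 6. It rose at week 3 with a difference of 4.60 (SE 0.58, adjusted p = 0.00259), again lowest in HF5 and without overlap.

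The venule list of 7 genes held 3 that were higher at week 3 and 0 that were lower, with a median of 1.19. The third was Madcam1, the ligand of integrin α4β7, at 1.43 (SE 0.32, adjusted p = 0.0211). It was dim on all arrays, and without HFC, HF20 or HF75 its adjusted p was 0.0727, 0.0898 or 0.0744. The sulphotransferases Chst4 (1.19, adjusted p = 0.141) and Chst2 (0.08, adjusted p = 0.907) and the chemokine-binding receptor Darc (0.40, adjusted p = 0.783) did not pass. Without the HFC or the HF20 pair the list had 2 genes higher, against 4 without HF5. The list's mean level at week 3 was -0.06, -2.04, -0.12 and -0.29 in HFC, HF5, HF20 and HF75, so HF5 stood apart from the other 3, while at week 6 it was between -3.57 and -3.12.

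The chemokine ligands of the node did not move as one. Cxcl13, which draws B cells into follicles, was 1.23, -0.37, 1.00 and 0.65 in HFC, HF5, HF20 and HF75 at week 3 and -1.35, -1.80, -2.02 and -3.26 at week 6. Its difference was 2.74 (SE 0.44, adjusted p = 0.00687), and the lowest week 3 array lay above the highest week 6 array. Ccl19, a ligand of Ccr7, was 3.26, 1.12, 3.53 and 4.06 at week 3 and 4.18, 3.24, 2.83 and 5.04 at week 6. Ccl21c, the other Ccr7 ligand measured, was 4.37, 0.72, 3.84 and 4.26 against 5.59, 4.05, 4.03 and 3.77. Both overlapped between the weeks and neither passed (-0.83 and -1.06, adjusted p = 0.265 each), with the HF5 array lowest at week 3. Cxcl12, which holds cells that carry Cxcr4, did not pass either (-0.22, adjusted p = 0.895).

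Their receptors on lymphocytes were all higher at week 3. Cxcr5, the receptor of Cxcl13 on B cells and follicular T cells, was 2.40, 3.19, 1.63 and 1.23 in HFC, HF5, HF20 and HF75 at week 3 and -1.05, -2.12, -3.18 and -4.47 at week 6 (difference 4.82, SE 0.43, adjusted p = 0.000897). Ccr7, which leads T cells and dendritic cells to the T zone, was 3.95, 5.47, 3.37 and 3.95 against 0.15, -0.91, -2.89 and -4.50 (6.22, SE 0.67, adjusted p = 0.0015). In both genes HF5 was the highest array at week 3, unlike in Glycam1 and Cxcl13, and HF75 the lowest at week 6. Ccr6, carried by mature B cells, varied by little at week 3, from 2.07 to 2.15, and lay between -4.68 and -2.43 at week 6 (5.73, SE 0.45, adjusted p = 0.000668). Cxcr4 rose by less (3.34, SE 0.37, adjusted p = 0.0017). Of the 8 chemokine and receptor genes tested, from 10 listed, 5 were higher and 0 lower, with a median of 3.04, and the count was 5 without any 1 pair.

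Lymphotoxin, the tumour necrosis factor (TNF) family signal that lymphocytes send to stroma, was higher at week 3 in both of its subunits. Ltb was 5.17, 5.49, 5.30 and 5.04 in HFC, HF5, HF20 and HF75 at week 3, the most even of the 3 marker genes, and 1.67, 0.45, 0.35 and 0.78 at week 6 (4.44, SE 0.38, adjusted p = 0.000765). Lta was -0.37, 0.30, -0.15 and -0.07 against -3.45, -4.86, -5.17 and -4.75 (4.49, SE 0.43, adjusted p = 0.00106). Neither subunit overlapped between the weeks, and both kept their call without any 1 pair. Tnf went the other way, from 0.09, 0.52, -0.01 and -0.63 at week 3 to 3.63, 2.11, 0.97 and 0.45 at week 6. The weeks overlapped, the difference was -1.80 (SE 0.48, adjusted p = 0.0416), and the call was lost without any 1 of the pairs, at adjusted p = 0.125, 0.0878, 0.0863 and 0.0801 without HFC, HF5, HF20 and HF75.

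Tnfsf14, the ligand LIGHT, was higher at week 3 (1.74, SE 0.44, adjusted p = 0.0333), but without HF5, HF20 or HF75 its adjusted p was 0.0903, 0.114 or 0.113. The shared receptor Ltbr did not pass (-0.56, adjusted p = 0.384), nor did the downstream kinase Map3k14 (0.78, adjusted p = 0.347) and the NF-κB subunits Relb (0.84, adjusted p = 0.228) and Nfkb2 (0.88, adjusted p = 0.172). In Relb and Nfkb2 the HF5 array was the highest of week 3, at 3.74 and 2.78. Over the 13 genes of the pathway, 3 were higher and 1 lower, with a median of 0.84 (0.47 without HF5, 1.26 without HFC). The count of genes higher was 4 without HFC and 2 without HF5, HF20 or HF75.

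Of 3 B cell survival receptors, 2 were higher at week 3, and their ligands were not. Tnfrsf13c, the BAFF receptor, was 2.19, 3.58, 1.86 and 1.55 in HFC, HF5, HF20 and HF75 at week 3 and -3.85, -4.44, -4.56 and -5.19 at week 6 (6.80, SE 0.41, adjusted p = 0.00062). Tnfrsf13b, the receptor TACI, was dimmer and well above background on 1 of the 4 week 6 arrays (2.64, SE 0.36, adjusted p = 0.0035). BAFF itself, Tnfsf13b, was between -3.62 and -1.65 at week 3 and between -1.60 and -0.24 at week 6 (-1.16, adjusted p = 0.103), and APRIL, Tnfsf13, did not pass (-0.95, adjusted p = 0.231). The third receptor, Tnfrsf17, known from plasma cells, did not pass either (0.20, SE 0.49, adjusted p = 0.819). Of the 5 genes, 2 were higher and 0 lower, with a median of 0.20 that was -0.19 without HF20 and -0.11 without HF75.

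The 60-base probes that gave the 3 marker genes are shown because the account of week 3 begins with them.
Glycam1: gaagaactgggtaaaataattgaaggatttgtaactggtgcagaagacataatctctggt
Cxcr5: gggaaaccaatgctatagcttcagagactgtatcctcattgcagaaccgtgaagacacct
Ltb: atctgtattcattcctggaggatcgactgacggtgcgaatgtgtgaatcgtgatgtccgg

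Most genes of the B cell receptor were higher at week 3. Of 14 genes of the B cell receptor complex and its partners, 13 were higher at week 3 and 0 lower, with a median of 3.83. Ms4a1, which encodes the surface protein CD20, was 4.84, 4.51, 4.53 and 4.25 in HFC, HF5, HF20 and HF75 at week 3 and -0.39, -1.12, -2.56 and -4.36 at week 6 (6.64, SE 0.57, adjusted p = 0.000789). Cd79b, a signalling chain of the receptor, was 4.92, 4.05, 4.51 and 4.69 against 1.09, -0.12, -1.43 and -1.74 (5.09, SE 0.50, adjusted p = 0.00118). At week 3 the 4 arrays of each gene lay within 1 log2 unit, while at week 6 they spread over more than 2, with HFC the highest and HF75 the lowest. Whether the tissue held fewer B cells at week 6 or less of these RNAs per cell cannot be told apart in bulk arrays, and this holds for every cell type below.

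The coreceptors Cd22 (5.75), Cr2 (6.31) and Fcer2a (5.90) were higher at week 3, though the second probes of Cd22 and Cr2 gave 2.37 and 2.12. Cr2, the complement receptor of mature B cells, was well above background on 1 of the 4 week 6 arrays and Fcer2a, the low-affinity IgE receptor, on 2. The Fc receptor-like Fcrla (5.82) and Faim3, an IgM Fc receptor (6.46), were among the 10 largest differences, as was Bfsp2 (6.03), known as a lens filament gene. The kinase Blk was not well above background on any week 6 array. It was at least 10.0-fold higher at week 3 (adjusted p = 0.00142, against floor levels at week 6). Lyn, shared with myeloid cells, did not pass (1.03, adjusted p = 0.0902). The call of the adaptor Blnk (1.54, adjusted p = 0.0412) held only without HF75 and was lost without HFC, HF5 or HF20, at adjusted p = 0.155, 0.111 and 0.1. Syk (1.70, adjusted p = 0.0164) lost its call without HF20 or HF75, at adjusted p = 0.0704 and 0.0699. The list's count was 11 to 12 without any 1 pair, and 8 in the HFC and HF5 pairs alone against 11 in the HF20 and HF75 pairs alone.

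All 8 transcription factors of the B lineage that were listed were higher at week 3, with a median of 2.68. Pou2af1, the coactivator that octamer factors bring to immunoglobulin promoters, was 4.11, 5.35, 3.79 and 4.27 in HFC, HF5, HF20 and HF75 at week 3 and 0.04, -0.10, -1.13 and -1.73 at week 6 (5.11, SE 0.40, adjusted p = 0.000667). Spib differed by 5.69 and Bcl11a by 4.27. Pax5, which fixes B cell identity, was not well above background on any week 6 array. It was at least 5.26-fold higher at week 3 (adjusted p = 0.00444, against floor levels at week 6). Ebf1, also expressed in fat precursors, had the smallest difference of the 8 (1.42, adjusted p = 0.031), and its adjusted p was 0.0552, 0.0677, 0.119 and 0.0934 without HFC, HF5, HF20 and HF75. Ikzf3 (2.12, adjusted p = 0.0193) lost its call without HF5, HF20 or HF75, at adjusted p = 0.0595, 0.0833 and 0.0782.

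Because octamer factors and their coactivator moved with these genes, the octamer ATGCAAAT was searched on both strands of the RefSeq promoters, each 300 bases long. Promoters were found for 25 of the 33 genes in the B cell lists, and 1 of them (4%) held it, against 570 of 32851 promoters of all genes (1.74%). The match was in Blnk, at chr19:40994172-40994471 on the minus strand of GRCm38.p6, and the capitals mark it. A match describes these letters only.
Blnk: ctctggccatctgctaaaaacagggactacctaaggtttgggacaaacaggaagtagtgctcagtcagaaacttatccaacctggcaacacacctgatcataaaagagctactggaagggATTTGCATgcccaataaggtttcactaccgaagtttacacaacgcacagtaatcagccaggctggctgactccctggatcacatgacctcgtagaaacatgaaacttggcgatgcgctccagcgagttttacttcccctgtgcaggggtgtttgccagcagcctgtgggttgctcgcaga

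Genes of later B cell stages were mixed. In the germinal centre list, 2 of 5 genes (6 listed) were higher and 0 lower, with a median of 0.57 (0.06 without HF5, 1.18 without HF75). Rgs13, a regulator of chemokine signalling in germinal centre B cells, was not well above background on any week 6 array. It was at least 25.9-fold higher at week 3 (adjusted p = 0.00104, against floor levels at week 6). Bcl6, the repressor that runs the germinal centre but is also found elsewhere, did not pass (0.57, adjusted p = 0.519). Of 7 plasma cell and immunoglobulin genes (11 listed), 1 was higher and 0 lower, with a median of 1.22 (0.56 without HF75). Igj, the joining chain, was 4.63, 3.11, 3.28 and 5.43 in HFC, HF5, HF20 and HF75 at week 3 and 4.12, 2.46, 2.76 and 2.24 at week 6 (1.22, adjusted p = 0.147), and the plasma cell factors Xbp1 (-0.50, adjusted p = 0.359) and Prdm1 (-0.46, adjusted p = 0.462) did not pass. Irf4 did (2.43, adjusted p = 0.0243), but without HF5, HF20 or HF75 its adjusted p was 0.0785, 0.0661 or 0.0762.

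T cell genes were higher at week 3 as well, most of all in HF5. All 18 genes of the T cell receptor complex that were listed passed, with a median of 3.86. Cd3d was 2.90, 4.74, 2.66 and 3.37 in HFC, HF5, HF20 and HF75 at week 3 and 1.44, -0.45, -2.01 and -1.68 at week 6 (4.09, SE 0.63, adjusted p = 0.00561). Cd8a was 1.06, 2.81, 1.21 and 1.64 against 0.03, -2.56, -3.79 and -3.89 (4.23, SE 0.74, adjusted p = 0.00897). HF5 was the highest array of week 3 and HFC the highest of week 6, so the HFC pair had the smallest differences. Without HF20 the adjusted p of Cd8a was 0.0603. The list's mean level was 0.41, 2.16, 0.13 and 0.64 at week 3 and -1.10, -2.92, -3.38 and -3.94 at week 6. Its count was 17, 16, 9 and 14 without HFC, HF5, HF20 and HF75, and 0 in the HFC and HF5 pairs alone against 16 in the HF20 and HF75 pairs alone.

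Among the T cell state genes, 11 of 13 were higher and 1 lower, with a median of 3.15. Lef1, a transcription factor of naive T cells, was 0.55, 3.20, 0.78 and 1.86 in HFC, HF5, HF20 and HF75 at week 3 and -1.62, -1.47, -2.32 and -2.42 at week 6 (3.56, adjusted p = 0.0032). The weeks did not overlap, and HF5 was the highest of week 3. The interleukin-7 receptor Il7r (3.98) and Tcf7 (3.15), a partner of Lef1, also rose. Foxp3, the factor of regulatory T cells, was not well above background on any week 6 array. It was at least 5.57-fold higher at week 3 (adjusted p = 0.0074, against floor levels at week 6). Gata3 did not pass (-0.04, adjusted p = 0.972). The count of genes higher was 10, 10, 7 and 8 without HFC, HF5, HF20 and HF75.

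Cytotoxic genes rested on fewer arrays. Of 13, 6 were higher and 0 lower, with a median of 1.76, but the count was 7 without HFC, 2 without HF5 and 1 without HF20 or HF75. Prf1, the pore-forming perforin, kept its call without any 1 pair (3.49, SE 0.55, adjusted p = 0.00626). The chemokine Ccl5 was 4.00, 3.94, 2.91 and 3.87 in HFC, HF5, HF20 and HF75 at week 3 and 4.07, 1.74, 0.35 and 0.36 at week 6, so the HFC arrays of the 2 weeks were level (2.05, adjusted p = 0.0457, and 0.118, 0.157 and 0.151 without HF5, HF20 and HF75). The NK cell receptor Ncr1 did not pass (1.08, adjusted p = 0.175).

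Genes of antigen presentation were higher at week 3 in part. Of 10 genes of the MHC class II pathway, 5 were higher and 0 lower, with a median of 1.38. The leading members, H2-Oa (5.23, adjusted p = 0.00106) and H2-Ob (4.59, adjusted p = 0.00137), form the peptide-loading modulator that is characteristic of B cells, and these and Ciita, the master regulator of the pathway (3.09, adjusted p = 0.00723), were named after their values were seen. H2-Ab1, found in all presenting cells, did not pass (0.81, adjusted p = 0.184). The count was 3 without HFC, HF20 or HF75. Of 10 dendritic cell genes, 4 were higher and 0 lower, with a median of 0.81. None was left without HFC, HF20 or HF75, and 2 without HF5. Fscn1, the actin bundler of mature dendritic cells, had an adjusted p of 0.0499 that was 0.109, 0.177 and 0.163 without HFC, HF20 and HF75.

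**Figure D2:**
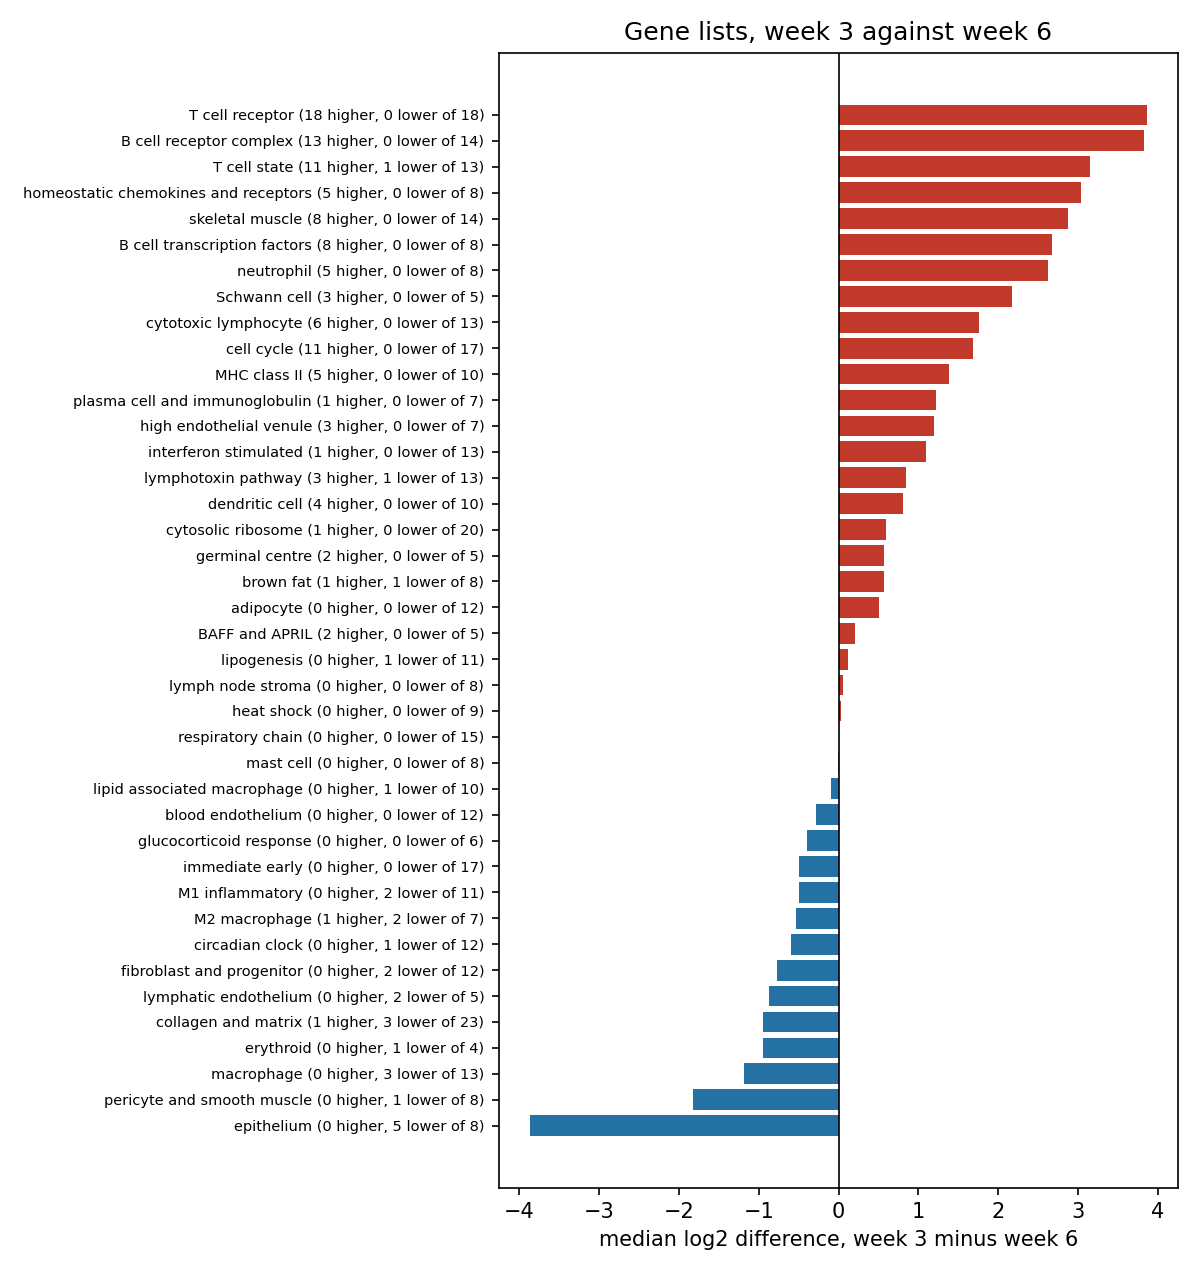
Median log2 difference, week 3 minus week 6, of each gene list with more than 3 genes tested, with the number of its genes higher and lower at week 3 past the threshold. T cell receptor and B cell receptor genes had the highest medians (3.86 and 3.83) and epithelial genes the lowest (-3.87), beside 0.07 over all genes; the medians near 0 of lymph node stroma, lipid associated macrophage, heat shock, mast cell and respiratory chain genes changed sign with the scaling, and that of lipogenesis with default normexp.

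Cxcl13 aside, the genes listed for the stroma of the node gave no calls. Of 8 lymph node stroma genes, 0 were higher and 0 lower, with a median of 0.06 that was -0.31 after quantile normalization and ran from -0.30 without HF75 to 0.23 without HF5. The adhesion molecule Vcam1 was between -0.07, in HF5, and 2.18 at week 3 and between 1.65 and 3.34 at week 6 (-1.09, adjusted p = 0.138). Tnfsf11, the cytokine RANKL that is needed for nodes to form, did not pass (1.70, adjusted p = 0.0607), nor did Il7 (0.25, adjusted p = 0.716) or the fibroblastic reticular marker Pdpn (-1.47, adjusted p = 0.0943).

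No list of transporter or ciliary genes was made, so the genes here are those that the size of the difference picked. Among the 10 largest differences toward week 6 were Slc38a5, an amino acid transporter, Cdh16, a cadherin of kidney and other epithelia, Lrp2, the endocytic receptor megalin, Mmp7, the matrix protease matrilysin of glandular epithelium, and Fbp1, an enzyme of gluconeogenesis. Tekt1, a tektin of ciliary microtubules, Dynlrb2, a dynein light chain, and Ccdc153, a coiled-coil gene known from ciliated cells, were the others with a known place in cilia. The list was completed by Calml3, a calmodulin-like protein of epithelia, and Cuzd1.

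Slc38a5 was -3.39, -4.80, -6.41 and -4.26 in HFC, HF5, HF20 and HF75 at week 3 and 3.33, 5.51, 2.96 and 4.52 at week 6 (-8.80, SE 0.57, adjusted p = 0.00062). Mmp7 was -2.63, -4.20, -6.41 and -3.51 against 3.47, 3.99, 3.59 and 4.21 (-8.00, SE 0.59, adjusted p = 0.000667). Tekt1 was -4.71, -4.80, -6.41 and -4.83 against 1.39, 1.93, 2.39 and 2.97 (-7.36, SE 0.48, adjusted p = 0.00062). All 4 diets were high at week 6 in all 3 genes, and at week 3 the HF20 array was at the lowest level it could show. Slc38a5 and Tekt1 were well above background on 2 of the 4 week 3 arrays and Mmp7 on 3, so the sizes of these differences lean on the floor.

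Cdh16 (-8.08), Ccdc153 (-8.09), Lrp2 (-7.60), Calml3 (-7.58), Dynlrb2 (-7.51) and Fbp1 (-7.32) had adjusted p-values from 0.00062 to 0.00153. All 10 genes kept their calls without any 1 pair, which their choice by size and sign on these same pairs favours. Cuzd1 was the least even, at 3.12, 6.11, 5.15 and 2.33 in HFC, HF5, HF20 and HF75 at week 6 and -1.68, -4.80, -6.41 and -1.55 at week 3 (-7.79, SE 1.29, adjusted p = 0.00749). HF5 and HF20 were highest at week 6 and not well above background at week 3. The 4 probes of Lrp2 were all lower at week 3 but ranged from -7.60 to -2.70. The low-fat array of week 6, which was not in the fit, had Mmp7 at 4.54, Cdh16 at 4.70 and Krt8 at 6.68, as high as the high-fat arrays of that week.

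The probes of the 3 genes with the largest differences toward week 6 are shown for the same reason as those of the week 3 markers.
Slc38a5: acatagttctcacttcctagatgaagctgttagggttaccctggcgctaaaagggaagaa
Ccdc153: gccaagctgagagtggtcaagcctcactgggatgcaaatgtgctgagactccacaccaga
Cdh16: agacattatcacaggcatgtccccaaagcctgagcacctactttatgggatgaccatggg

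Of the keratins, Krt8, Krt18, Krt14 and Krt15 passed and Krt5 did not (-3.64, adjusted p = 0.0566). Krt8, a keratin of simple epithelium, was -0.68, -1.81, 0.27 and -1.78 in HFC, HF5, HF20 and HF75 at week 3 and 5.56, 5.64, 5.16 and 5.68 at week 6 (-6.51, SE 0.49, adjusted p = 0.000667), with 1 week 6 array saturated. Its partner Krt18 differed by -4.91 (SE 0.47, adjusted p = 0.00113). Epcam, an epithelial adhesion molecule, was -4.02, -2.34, -3.65 and -3.74 against -0.45, 1.22, 1.68 and 1.94 (-4.54, SE 0.47, adjusted p = 0.00129). Neither gene overlapped between the weeks, and HFC was the lowest week 6 array in Epcam. Of 8 epithelial genes (10 listed), 0 were higher at week 3 and 5 lower, with a median of -3.87. The other members lower were the basal keratins Krt14 (-3.97, adjusted p = 0.0108, kept without 3 of the 4 pairs) and Krt15, named, like Krt5, after their values were seen. Krt15 was not well above background on any week 3 array, so no size is given. Its p-value rests on floor levels at that week (adjusted p = 0.0357, kept without 1 of the 4 pairs). When only probes well above background on all 8 arrays were tested, 4 of 5 epithelial genes were lower. Cdh1, the cadherin of adherens junctions, did not pass (-2.19, adjusted p = 0.0629).

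The basal keratins were uneven at week 6: Krt14 was -2.12, 1.98, 0.45 and -2.57 in HFC, HF5, HF20 and HF75. HF5 and HF20 were thus high in Krt14 and Cuzd1, while Krt8 was level over the 4 diets. The list's count was 7, 4, 3 and 5 without HFC, HF5, HF20 and HF75, 8 under median scaling or with no filter on dim probes, and 2 with the low-fat pair added. Its median was -1.31 with default normexp and -2.68 with normexp from negative controls. Its summed level was 1.39, 0.92, 2.38 and 1.22 at week 3 and 6.15, 7.08, 6.44 and 6.81 at week 6, and the brightest probe on average over the 8 arrays was that of Krt18. Of 5 milk genes, only Lalba could be tested (0.99, adjusted p = 0.295), and Csn1s1 and Csn2 were not well above background on any of the 8 arrays.

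The labels describe the tissue of these arrays as subcutaneous SVCs, and the series text as infiltrating macrophages, so macrophage genes were set beside the rest. Emr1, which encodes the standard surface marker of mouse macrophages, was 1.68, 1.41, 1.11 and 0.79 in HFC, HF5, HF20 and HF75 at week 3 and 2.87, 2.34, 2.51 and 1.96 at week 6, above the array's 75th percentile on all 8 arrays. The difference was -1.18 (SE 0.31, adjusted p = 0.0395), and it was lost without any 1 pair, at adjusted p = 0.133, 0.0538, 0.127 and 0.105. Csf1r, the receptor for macrophage colony-stimulating factor, was lower at week 3 (-1.86, adjusted p = 0.0294), as was the complement chain C1qc (-1.40, adjusted p = 0.0287). Only 1 of the 3 probes of Csf1r, from -1.86 to -0.67, and 1 of the 2 of Emr1, from -1.18 to -1.10, passed. Csf1r kept its call only without HF75, and the adjusted p of C1qc was 0.118, 0.0684, 0.0755 and 0.0658 without HFC, HF5, HF20 and HF75.

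Of 13 macrophage genes, 0 were higher and 3 lower, with a median of -1.18 (-0.68 without HFC), and 0 were lower without HFC, HF5 or HF20. The list's mean level was 0.71, -0.06, 0.53 and 0.51 in HFC, HF5, HF20 and HF75 at week 3 and 2.13, 1.41, 0.71 and 0.42 at week 6, so it differed mainly in HFC and HF5. Its brightest probe on average over the 8 arrays was that of C1qc. Macrophage genes were thus present at both weeks, together with lymphocyte, fibroblast, vessel and fat genes, so the arrays did not measure macrophages alone. Mrc1, the mannose receptor of resident macrophages, was lower at week 3, at 1.09, -0.02, 0.33 and 0.15 against 2.83, 1.72, 1.90 and 2.08 (-1.75, SE 0.31, adjusted p = 0.0092), with no overlap and the call kept without any 1 pair.

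Lists of macrophage states were mixed, beside 8.63% higher and 8.94% lower over all genes. Of 10 lipid-associated macrophage genes, Trem2, a lipid receptor of such cells, was the 1 lower at week 3 (-2.24, adjusted p = 0.00558) and 0 were higher, with a median of -0.09 that was 0.06 under median scaling, -0.54 without HF20 and 0.24 without HF5. Of 11 M1 inflammatory genes (12 listed), 0 were higher and 2 lower, with a median of -0.50 (-0.18 without HFC, -1.21 without HF5), and without HFC, HF20 or HF75 0 were. These were Tnf and Ptgs2, the inducible prostaglandin synthase (-2.55, adjusted p = 0.0463). Of 7 genes of M2 macrophages (8 listed), 1 was higher and 2 lower, with a median of -0.54 (-0.35 without HFC, -0.91 without HF75). Chi3l3, a chitinase-like lectin, was 1.59, 3.61, 0.93 and 0.76 in HFC, HF5, HF20 and HF75 at week 3 and between -1.43 and -0.32 at week 6 (2.43, adjusted p = 0.0118, and 0.0607 without HF20), opposite to Mrc1. Trem2 and Ptgs2 were named after their values were seen.

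Of the neutrophil genes most were higher at week 3, but not all. S100a8, a calcium-binding alarmin, was 2.03, 4.86, 1.39 and 0.54 in HFC, HF5, HF20 and HF75 at week 3 and 0.17, 0.08, -1.92 and -1.09 at week 6 (2.90, SE 0.55, adjusted p = 0.0121, and 0.0701 without HF20). Of 8 genes (10 listed), 5 were higher and 0 lower, with a median of 2.63, and the count was 6, 3, 0 and 4 without HFC, HF5, HF20 and HF75. Ltf, the granule protein lactoferrin, went the other way without passing (-1.76, adjusted p = 0.0548). HF5 was the highest week 3 array in S100a8 but the lowest in Mpo, the myeloperoxidase gene, at -1.84, which was named after its values were seen. Red cell genes gave 1 call, toward week 6. Of 4 erythroid genes (6 listed), the heme synthesis gene Alas2 was lower (-1.29, adjusted p = 0.0476, lost without any 1 pair at 0.0702 to 0.187), with a median of -0.95. Of 8 mast cell genes (9 listed) 0 were called, with a median of -0.01 (-0.23 without HF75, 0.35 without HFC).

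The fibroblast list gave 2 calls, both lower at week 3. Pdgfra, the receptor that marks fibroblasts and fat progenitors, was 0.69, -2.07, -0.02 and -0.93 in HFC, HF5, HF20 and HF75 at week 3 and 2.77, 1.81, 1.82 and 2.28 at week 6 (-2.75, SE 0.43, adjusted p = 0.00579), but its second probe gave -0.91 and did not pass. Cd248, a surface protein of stromal cells, differed by -2.04 (adjusted p = 0.0191), but without HFC, HF20 or HF75 its adjusted p was 0.0556, 0.0573 or 0.0549. HF5 was the lowest week 3 array in both Pdgfra and Cd248. Of 12 fibroblast and progenitor genes, 0 were higher and 2 lower, with a median of -0.77, beside 8.94% lower over all genes, and the count was 1 without HFC, HF20 or HF75. Decorin (Dcn) was saturated on all 4 week 6 arrays and gave no usable difference.

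Of 23 collagen and matrix genes, 1 was higher and 3 lower, with a median of -0.95 that was -0.14 without HF5. Those lower were Fn1 (-1.91, adjusted p = 0.0116), which encodes fibronectin, Fbn1 (-1.81, adjusted p = 0.0203) and Col6a1 (-2.27, adjusted p = 0.0351), and the protease Mmp3 was higher (2.03, adjusted p = 0.032). These genes were named after their values were seen. The count of genes lower was 1, 3, 0 and 2 without HFC, HF5, HF20 and HF75. The call of Mmp3 was kept only without HF5.

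Vessel genes depended on the HF5 array of week 3. Cdh5, the cadherin of endothelial junctions, was 2.41, -1.29, 3.51 and 3.37 in HFC, HF5, HF20 and HF75 at week 3 and 2.14, 2.11, 0.98 and 3.55 at week 6 (-0.19, adjusted p = 0.898). Kdr, a receptor of vascular endothelial growth factor, was 2.33, -1.92, 3.71 and 3.42 against 1.70, 2.14, 1.28 and 2.36 (0.01, adjusted p = 0.995). In both genes HF5 was low at week 3 and the other 7 arrays overlapped. None of 12 blood endothelial genes (13 listed) passed in limma, and their median was -0.28, or 0.72 without the HF5 pair and -1.27 without HF20. Of 8 pericyte and smooth muscle genes, 1 was lower, Des, which encodes desmin (-2.61, adjusted p = 0.0392, kept only without 1 of the 4 pairs and named after its values were seen), with a median of -1.82 that was -0.20 without HF5.

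Of the lymphatic vessel genes, 2 passed the threshold. Mmrn1, a protein of lymphatic endothelium and platelets, was -1.48, -4.80, -1.68 and -2.44 in HFC, HF5, HF20 and HF75 at week 3 and 1.98, 0.07, 0.88 and 0.80 at week 6 (-3.53, SE 0.43, adjusted p = 0.00238), with HF5 not well above background at week 3. Lyve1, a hyaluronan receptor shared with resident macrophages, was lower too (-1.74, adjusted p = 0.0152), but without HFC, HF20 or HF75 its adjusted p was 0.0701, 0.076 or 0.0591. Of the 5 genes tested (6 listed), 0 were higher and 2 lower, with a median of -0.87. The difference from blood vessels was not tested.

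Fat cell genes were present at both weeks without a change past the threshold. Adipoq, the hormone adiponectin, was 2.51, 1.45, 3.14 and 3.54 in HFC, HF5, HF20 and HF75 at week 3 and 0.60, 1.85, 0.31 and 1.60 at week 6 (1.57, adjusted p = 0.0826). In 3 of the 4 pairs week 3 was higher, and HF5 was the exception. Of 12 adipocyte genes, limma called 0 in either direction, with a median of 0.51, and 3 were higher without HF5, with a median of 0.96. Of 11 lipogenic genes, Mlxipl, the carbohydrate-responsive transcription factor, was lower (-3.43, adjusted p = 0.00501) and 0 were higher, with a median of 0.12 (0.01 without HF75). Of 8 brown fat genes (9 listed), Cox8b, a respiratory subunit of brown fat and muscle, was higher (3.41, SE 0.40, adjusted p = 0.002) and the deiodinase Dio2 lower (-2.03, adjusted p = 0.0209, kept without 1 of the 4 pairs), with a median of 0.57 (0.31 without HFC, 0.37 without HF75). Mlxipl and Dio2 were named after their values were seen.

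In the high-fat diets, part of the skeletal muscle genes were higher at week 3. Tnni2, the troponin I of fast fibres, was 3.87, 3.96, 4.37 and 6.23 in HFC, HF5, HF20 and HF75 at week 3 and 1.15, 0.45, 0.92 and 0.83 at week 6 (3.77, SE 0.47, adjusted p = 0.00256). Mylpf, a myosin light chain, was 1.02, 1.47, 1.53 and 2.88 against -1.92, -2.73, -1.43 and -4.17 (4.29, SE 0.68, adjusted p = 0.00622). HF75 was the highest of week 3 in both. The low-fat arrays, not in the fit, went the other way, with Mylpf at 1.63 on the dim array of week 3 and 6.61 at week 6. Acta1, the actin of muscle, overlapped between the weeks (0.53, adjusted p = 0.559). Of 14 genes, 8 were higher and 0 lower, with a median of 2.87, and the count was 7, 8, 6 and 7 without HFC, HF5, HF20 and HF75. The summed level was 6.10, 6.12, 6.70 and 8.49 at week 3 and 3.70, 4.69, 5.41 and 3.43 at week 6, and the brightest probe on average over the 8 arrays was that of Tnnc2, the fast troponin C. What part these cells had in the other differences was not tested.

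Some genes of dividing cells and of nerve sheaths were higher at week 3. Of 17 cell cycle genes, 11 were higher and 0 lower, with a median of 1.68, and the count was 9, 7, 5 and 3 without HFC, HF5, HF20 and HF75. Birc5, the mitotic protein survivin, kept its call without any 1 pair (2.37, SE 0.37, adjusted p = 0.00554). Mki67, the proliferation marker, was 2.55, 2.59, 1.99 and 2.81 in HFC, HF5, HF20 and HF75 at week 3 and 1.62, 0.08, 0.08 and 0.49 at week 6 (1.92, adjusted p = 0.0138, and 0.0651 and 0.0623 without HF20 and HF75). Of 5 Schwann cell genes, 3 were higher and 0 lower, with a median of 2.17 (3.37 without HF5), but the count was 1, 4, 0 and 0 without HFC, HF5, HF20 and HF75. S100b was 3.51, 0.33, 4.09 and 4.41 at week 3 and between -0.06 and 1.35 at week 6 (2.49, adjusted p = 0.0465), so HF5 was again low, and without HFC, HF20 or HF75 its adjusted p was 0.141, 0.172 or 0.147.

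Genes that report handling or the state of the animal gave few calls, beside 8.63% higher and 8.94% lower over all genes. Of 17 immediate-early genes (18 listed), 15 respiratory chain genes, 9 heat shock genes (10 listed) and 6 glucocorticoid-responsive genes, limma called 0, with medians of -0.50, -0.00, 0.03 and -0.40. Without HF20 these were -0.95, 0.02, -0.04 and -0.75, and without HF5 -0.31, -0.03, 0.15 and -0.21. The heat shock median was 0.41 without HF75 and -0.12 without HFC. Of 20 genes of the cytosolic ribosome, 1 was higher. Their median of 0.60, or 0.05 after quantile normalization, is not a usable difference, as probes such as that of Rplp0 were saturated on all 8 arrays and HF20 of week 6 saturated at the lowest level. Of 12 clock genes (13 listed), Hlf, a clock-controlled transcription factor, was lower (-1.87, adjusted p = 0.00743), with a median of -0.60. Of 13 interferon-stimulated genes, the antiviral Mx1 was higher (2.39, adjusted p = 0.00357), with a median of 1.09 that was 0.46 without HF20, and 4 were higher without HF5. Hlf and Mx1 were named after their values were seen.

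The dose of Kal-1 was asked about by fitting the 4 week differences against the rank of the dose. With 4 differences, each from 1 array per week, such a fit has little power to find a dose effect. In limma 0 of 30200 probes (0%) passed, the smallest adjusted p was 1, and 856 had an unadjusted p under 0.05. The slope of Cxcr5 against dose rank, 0.63 per step, had an adjusted p of 1.

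Which of the weeks stood apart was read against weeks 12 and 15 of the same diets, in a fit of 16 arrays. The 10 genes that led toward week 6 were high there on all 4 diets, and some of them also lay above the 75th percentile on the HF5 array of week 15. Of 31952 probes, 2375 (7.43%) were higher at week 6 than at the later weeks and 1088 (3.41%) lower. Week 3 had 752 probes higher (2.35%) and 254 lower (0.795%), but without any 1 diet these counts fell to 0 or 1 and to 0, while 7724 probes had an unadjusted p under 0.05. The 2 contrasts share the later arrays. The genes below were picked by their differences between week 3 and week 6 on the same arrays, which favours a difference here too, so their values are given as a description without p-values.

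The 10 genes that led toward week 6 were above the later weeks by 6.62 to 9.06 at week 6 and between -0.70 and 1.27 from them at week 3. For Mmp7 the difference from the later weeks was 8.13 at week 6 and 0.13 at week 3. Krt8 gave 6.80 and 0.29. For Mmp7 and Krt8 the later array nearest to week 6 was HF5 of week 15, at 0.69 and 3.55. For Cuzd1 it was HF75 of week 12, at 0.52, against -1.58 on HF5 of week 15.

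Glycam1 and Ms4a1 varied widely among the later arrays. Glycam1 was 5.71 above the later weeks at week 3 and -4.74 from them at week 6, and Ms4a1 gave 4.13 and -2.51. Without HF20 neither gene was more than 3.79 above the later weeks at week 3. Their levels at weeks 12 and 15 ran from as low as week 6 to nearly as high as week 3: Glycam1 was 3.87 in HF5 and 4.17 in HF75 at week 12 and 3.78 in HFC at week 15, against -6.76 and -6.49 in HF20. The 10 genes that led toward week 3 were 3.51 to 5.71 above the later weeks at week 3 and between -4.74 and -1.47 from them at week 6. Without HF20 these ranges were 2.86 to 3.79 and -6.65 to -2.17. Without HF5 they were 3.61 to 7.56 and -3.81 to -1.25. Myl1 was -4.43 from the later weeks at week 6 and -0.28 at week 3, Mylpf -4.11 and 0.18, and Tnni2 -3.01 and 0.76. Mylpf was as low as at week 6 on 1 later array, HF20 of week 12, at -2.64. Cxcl13 was -2.89 from the later weeks at week 6 and -0.15 at week 3.

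**Figure D3:**
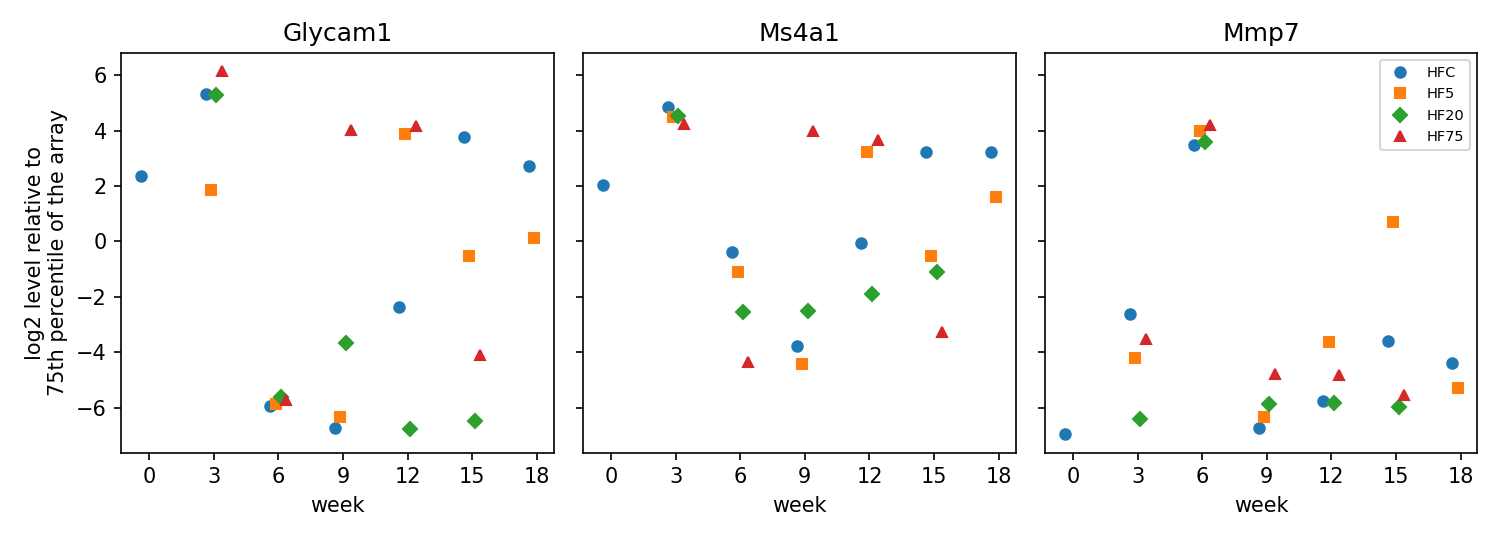
Log2 level, with 0 at the array's 75th percentile, of Glycam1, Ms4a1 and Mmp7 on every array of the 4 high-fat diets from week 0 to week 18, 1 symbol per array. Mmp7 was high on all 4 arrays of week 6, while Glycam1 and Ms4a1 were high on all 4 of week 3 and again on single arrays of later weeks, such as Glycam1 at 4.01 in HF75 of week 9.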

How the data were processed

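Per the file headers, the deposited values were spot intensity values that Feature Extraction 10.5.1.1 had corrected for background within each array, without scaling between arrays; the submitters' processing notes name version 9.1. A deposited table by the authors holds log2 fold changes against the low-fat array of the same time and was not used. Each log2 intensity was shifted by the array's 75th percentile, dim spots were given the level of the dimmest spot well above background on their array as a floor, outlier spots were dropped and duplicate spots averaged. Of 40628 probes, those well above background on 2 or more of the 4 arrays of 1 week were tested. A gene was its probe with the highest mean level. limma 3.58.1 in R 4.3.3 fitted diet and week, two-sided, with Benjamini-Hochberg adjustment over all probes, and was tested on simulated data. The pairing by diet comes from the labels. An exact sign-flip test over 4 pairs cannot go below 0.125, so none is given.

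Where a probe was not well above background on any array of a week, the fold is a lower bound: the bright week's mean against the mean of the dim week's lowest measurable levels. Its p-value then rests on floor levels, and it was tested only because of the other week. Of the probes tested, 1400 were in this state at week 3 and 731 at week 6. Named genes were Glycam1, Cxcr5 and Ltb, the 10 largest differences past the threshold in each direction with the same sign in all 4 pairs and a gene symbol that is not a RIKEN, Gm or clone name, up to 4 brightest genes of each of 41 lists, all members of the lymphoid lists, and the cell type markers. The members and lists were chosen with earlier results of these data known. Of the 40 arrays, 2 of week 18 have labels that conflict and were not used. Promoters came from RefSeq. Alternatives were other scalings, background corrections, filters, blocks and sets of pairs.

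Several limits apply. Each diet had 1 array per week, so the differences of single diets have no error of their own. The weeks were scanned on different days and on different slides, and what came from scanning was not separated from what came from time. The floor shrinks differences of genes that were dim at 1 of the weeks, and saturation can shrink those of the brightest genes or add to them, as the arrays saturated at different levels. A bulk array measures a mixture, and no dissection record of the samples was available. Closely related gene copies can bind the same probe. The promoter search used the start of 1 transcript set and measured no binding.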

Additional observations from a re-analysis of the deposited data

Results flagged for a closer look

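The mean level of each gene list was compared among the 4 arrays of each week, and an array was picked out where its gap to the nearest of the others, divided by the range of the 4, passed the critical value of Dixon's test. Chance picks out about 1 in 20 such groups, and 7 of 82 were. Of these, 5 were the HF5 array of week 3. Its mean level was -2.04 for high endothelial venule genes (others -0.29 to -0.06), -0.48 for lipid-associated macrophage genes (0.78 to 0.99) and -3.51 for lymphatic endothelial genes (-1.84 to -1.66). It was -1.61 for pericyte and smooth muscle genes (3.73 to 4.11) and -1.51 for Schwann cell genes (1.55 to 2.02). On the same array the T cell receptor list was the highest of week 3, at 2.16, and the B cell receptor list, at 1.82, lay among the others. At week 6, HF75 had the milk gene list, which there is Lalba alone, at -5.74, not well above background (others -4.38 to -4.16). HF5 of week 6 had clock genes at -0.69 (others -0.22 to -0.14). The causes were not tested.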

How the results depend on the processing

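The main counts, 2680 probes higher at week 3 and 2406 probes lower at week 3, moved by less than 1.5 times with no diet block (3000 and 2469), quantile normalization, median scaling, no floor, no filter on dim probes, outlier spots kept, an intensity trend and 16 arrays in 1 fit. The default normexp correction gave 10590 higher and 1303 lower, or 89% of calls higher against 52.7%, and moved the median of all probes from 0.10 to 0.70. Median scaling moved it to 0.25. The default fit estimated background SDs of 65.5 to 1010 on 4 of 16 arrays, 3 of them of week 3, where negative controls had SDs of 2.91 to 4.44. A normexp correction taken from the negative controls, chosen after seeing the data, gave 2710 and 2054. Probes well above background on all 8 arrays gave 1162 lower, with 64.3% of calls higher, from fewer probes tested. Adding the low-fat pair, with its dim array, gave 131 and 22, with 85.6% higher. Without 1 pair, 949 to 1891 were higher and 1073 to 1850 lower. After seeing the data, the HFC and HF5 pairs were taken alone (120 and 177, 40.4% higher), as were HF20 and HF75 (1108 and 1108), from fewer samples. Scan day as a random block, also added, gave 2687 and 2414 at a correlation of -0.00119. It could not take an effect of scan day out of the week difference. A fixed block for slide or scan day could not be fitted, as no slide or scan day held both weeks. Requiring 2-fold changed neither count, as every probe past the threshold already differed by more than that.

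The 752 probes higher at week 3 than at weeks 12 and 15 and the 254 probes lower at week 3 than at weeks 12 and 15 became 14632 and 1758 with default normexp, 1402 and 493 with normexp from negative controls, 487 lower with probes well above background on all 16 arrays, and 0 to 1 higher and 0 to 0 lower without 1 diet. The 2375 probes higher at week 6 than at weeks 12 and 15 and the 1088 probes lower at week 6 than at weeks 12 and 15 became 896 and 464 with default normexp, 727 and 669 with probes well above background on all 16, and 1543 to 2130 and 275 to 1351 without 1 diet. The causes were not tested. Of 113 named genes past the threshold, 71 stayed past it without each pair in turn, 103 with no diet block, 106 with quantile normalization, 111 with median scaling, 108 with normexp from negative controls, 82 in the HF20 and HF75 pairs alone, 30 in the HFC and HF5 pairs alone and 27 with the low-fat pair added. With no diet block the cytotoxic list had 3 genes higher in place of 6. None turned its direction while past it in any setting.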

Other observations

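Further genes with a higher mean at week 6 were singled out after their values were seen. Crisp1, a secreted protein first known from the epididymis, was -0.03, -4.54, -6.41 and 0.43 in HFC, HF5, HF20 and HF75 at week 3 and 3.34, 6.55, 5.23 and 2.14 at week 6 (week 3 minus week 6 -6.95, SE 1.64, limma adjusted p = 0.0271). Gpr64, an adhesion receptor of the efferent ducts and epididymis, was -2.35, -3.82, -4.15 and -3.10 against 3.15, 3.51, 3.57 and 4.83 (-7.12, SE 0.46, adjusted p = 0.00062). In Crisp1, HF5 and HF20 were the highest arrays of week 6, as in Cuzd1, while the 4 diets lay within 2 log2 units of each other at each week in Gpr64. The protease inhibitor-like Wfdc10 (-7.28, adjusted p = 0.0185) and Wfdc15b (-7.04, adjusted p = 0.0234) and the aldo-keto reductase Akr1b7 (-7.08, adjusted p = 0.0227) had the HF5 and HF20 arrays highest at week 6. Akr1b7 was well above background on 1 of the 4 week 3 arrays, HF75 at 0.16, which lay above HFC of week 6 at -2.71. The HF5 and HF20 arrays did not lead in the scaffold protein Pdzk1 (-7.08, adjusted p = 0.000743). The low-fat array of week 6 had Crisp1 at 5.46 and Gpr64 at 3.84. The source of these transcripts was not tested.

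The lymphoid transcripts were not limited to week 3 or to high-fat diets. Glycam1 was 5.75 on the low-fat array of day 1 and -4.52 on the HFC array of that day, and at day 14 it was 5.47 in HFC. The HF75 array of week 9 had Glycam1 at 4.01, Cxcr5 at 3.08 and Ltb at 4.94, while HFC, HF5 and HF20 of that week had Glycam1 at -6.74, -6.35 and -3.66. The dim low-fat array of week 3 had Glycam1 at 6.89 and Ms4a1 at 5.70, above its floor of 1.09. On the low-fat array of week 18, Glycam1 was not well above background at -5.82 while Ms4a1 was 4.11 and Ltb 5.11. Slc38a5 was 4.65 on that array, while Ccdc153, Cdh16, Mmp7, Cuzd1 and Lrp2 lay between -5.82 and -3.32.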
